A study of Mus musculus with 16 samples.

Results

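The genes described here are 9 C-type lectin receptors of myeloid cells, Clec4e and the lectins related to it by family or signaling route. They are Clec4e (Mincle), Clec4d, Clec4n (Dectin-2), Clec4a1, Clec4a2, Clec4a3, Clec7a (Dectin-1), Clec5a and Clec12a. They were taken as every noncontrol probe whose gene name on the array equals a member, which gave 9 probes, 1 per gene, of 39429 probes for 24335 gene symbols. The set was chosen because Clec4e was strongly higher in common dendritic cell progenitors (CDPs) from tumor-bearing mice. All values of the 9 lectins in the tumor comparison of CDPs are therefore given as a description, and no test of them is read. Genes outside the set were tested in that comparison.

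The samples were macrophage-dendritic cell progenitors (MDPs) and CDPs, sorted after lineage depletion from bone marrow (BM) of female C57/Bl6 mice. MDPs stand upstream in the marrow, as the source of both the monocyte lineage and the CDPs, and it is from CDPs that plasmacytoid and conventional DCs arise. Tumor-bearing mice carried orthotopic PyMT-B6 mammary tumors of 1.5 cm in diameter, grown from a cell line derived from MMTV-PyMT mice on the same strain background, and age-matched mice without tumors were the controls. There were 4 groups, tumor-free MDPs, tumor-bearing MDPs, tumor-free CDPs and tumor-bearing CDPs, with 4 samples each from 4 independent experiments. Each sample held cells of 2 mice and was hybridized in 1 color (Cy5) to its own array. A tumor grown from a single implanted cell line limits the tumor-bearing group as a model, and pooling hides the spread between mice.

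C-type lectin receptors bind sugars and lipids of microbes and of damaged cells. Clec4e, Clec4d, Clec4n and Clec5a carry no signaling motif of their own and pair with adapters, Fcer1g for the first 3 and Tyrobp (DAP12) for Clec5a, which recruit the kinase Syk. Clec7a recruits Syk through its own cytoplasmic motif. Syk signals through the Card9, Bcl10 and Malt1 complex to NF-kB and thus to cytokine genes. Clec4a2 and Clec12a carry inhibitory motifs that recruit phosphatases. These receptors are best known from monocytes, macrophages, neutrophils and DCs, and Clec4e is known as an inducible gene under Cebpb control in macrophages.

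All 9 genes lie on chromosome 6. In the RefSeq annotation (GRCm38.p6), the 6 Clec4 genes lie within 368 kb, at chr6:122921848-123289871, and Clec4d and Clec4e are the last pair of the row. Clec12a and Clec7a lie farther along the chromosome, and Clec5a lies apart, at chr6:40574898-40585805. Each level below rests on a single 60-base probe. The first 30 bases of the probes for Clec4e, Clec4d, Clec4a1 and Clec4a3 are shown, since the results turn on these genes and the genes are close relatives. On build mm9 the array files place the whole probes at chr6:123232878-123232937 (minus strand), chr6:123224788-123224847 (plus strand), chr6:122884578-122884637 (plus strand) and chr6:122919637-122919696 (plus strand), each in an annotated transcript of its gene.
Clec4e: actggatttcacctgtacttgtatctactg
Clec4d: aggatttgtaaattacctggaataacattc
Clec4a1: ctttggttttgctgatgtagaaccaacaaa
Clec4a3: gccaatggttatacatatgataatactggc
Across the 36 pairs of the 9 probes, no pair shared a run of identical bases longer than 9.

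Promoter sequence is shown for 3 genes that were higher in tumor-bearing CDPs (Clec4e, Clec4d and Clec5a) and for Clec4a1, which separated CDPs from MDPs. The windows are the 250 bases before the annotated start in RefSeq (GRCm38.p6), read on the strand of the gene, at chr6:123289872-123290121 (minus strand), chr6:123261857-123262106 (plus strand), chr6:40585806-40586055 (minus strand) and chr6:122921598-122921847 (plus strand). Capitals mark matches, on either strand, to a C/EBP-like motif (TTNCNNAA) and to the PU.1-like motif GAGGAA, and no match of the first overlaps one of the second in these windows.
Clec4e: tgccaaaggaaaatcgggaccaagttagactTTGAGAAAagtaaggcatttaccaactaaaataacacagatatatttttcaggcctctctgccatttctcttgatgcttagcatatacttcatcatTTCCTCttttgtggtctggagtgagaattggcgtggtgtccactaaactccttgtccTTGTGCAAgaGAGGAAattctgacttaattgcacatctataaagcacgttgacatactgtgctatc
Clec4d: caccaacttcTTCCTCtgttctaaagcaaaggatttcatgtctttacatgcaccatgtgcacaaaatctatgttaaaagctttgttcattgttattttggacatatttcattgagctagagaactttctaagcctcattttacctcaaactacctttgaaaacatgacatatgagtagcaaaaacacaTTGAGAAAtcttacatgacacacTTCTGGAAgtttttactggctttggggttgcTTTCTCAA
Clec5a: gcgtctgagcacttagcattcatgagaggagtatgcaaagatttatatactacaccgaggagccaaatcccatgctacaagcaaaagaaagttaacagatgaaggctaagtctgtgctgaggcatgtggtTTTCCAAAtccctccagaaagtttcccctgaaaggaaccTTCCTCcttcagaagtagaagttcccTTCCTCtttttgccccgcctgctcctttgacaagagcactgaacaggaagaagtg
Clec4a1: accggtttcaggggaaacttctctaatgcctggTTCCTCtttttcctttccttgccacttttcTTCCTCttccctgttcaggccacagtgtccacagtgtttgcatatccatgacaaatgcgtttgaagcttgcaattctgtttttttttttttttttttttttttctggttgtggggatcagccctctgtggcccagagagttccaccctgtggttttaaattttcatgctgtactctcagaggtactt
The C/EBP-like motif had 2 matches before Clec4e, 3 before Clec4d, 1 before Clec5a and 0 before Clec4a1. It also had 3 matches before Clec12a and 2 before Clec4a2, neither of which was above background on any CDP array, and 0 before Clec4a3 and Clec7a. Before Clec12a, 1 position matched on both strands and is counted for each, and the 2 matches before Clec4a2 overlap each other. The C/EBP-like motif was present in 36.9% of all 32851 promoter windows of this length. The PU.1-like motif had 2 matches each before Clec4e, Clec5a and Clec4a1 and before Clec12a, 1 each before Clec4d and Clec7a, 0 before Clec4a2 and, before Clec4a3, 0 in one of its annotated windows and 1 in the other. It was present in 23.3% of all windows. A match is a description of the letters and not a bound site. A promoter sequence was found in the RefSeq table for 8 of the 9 genes, all but Clec4n.

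The arrays lay on 4 slides of 4, and the leading principal component over all tested probes (49.4% of variance) was 93.9% explained by slide. Slides 2 and 3 held 1 sample of every group, slide 1 held no tumor-bearing CDPs and slide 4 no tumor-bearing MDPs, so within-slide differences are given where they bear on a result. The share of probes well above background was 58.8% to 71.5% per array, and replicates correlated with r of 0.904 to 0.977. Transcripts of the sorting markers Csf1r, Flt3, Kit, Cd34 and Cx3cr1 were above background on all 16 arrays, and Kit was lower in tumor-free CDPs than in tumor-free MDPs, with means of −0.92 and 1.67. Levels are log2 spot signals minus the array's 75th percentile, so that 0 is the 75th percentile, and levels of different probes cannot be compared. A probe was called when its adjusted p in limma (Benjamini-Hochberg over 27433 tested probes) was under 0.05 and its fold change above 1.5. In bulk samples, fewer cells with a transcript and less RNA per cell cannot be told apart.

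Clec4e, a receptor for mycobacterial glycolipid and for a nuclear protein of dying cells, had the largest difference in CDPs of the 8 tested lectins. In tumor-free CDPs its level was −6.17, −5.85, −7.01 and −5.29 in replicates 2 to 5, and none of these was well above background. In tumor-bearing CDPs it was −1.80, −0.79, −0.74 and −1.95, all well above background. The groups did not overlap, and on this signal Clec4e was at least 15.5-fold higher in tumor-bearing CDPs. The bound took each tumor-free array at its lowest signal flagged above background, or at Clec4e's own signal where that was higher. The fitted difference was 4.76 (SE 0.42), and within the slides that held both groups it was 6.27 on slide 2, 4.22 on slide 3 and 4.56 on slide 4. With another background correction (normexp), which raises dim signals, the difference was 2.52, a smaller fold than the bound.

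**Figure D1:**
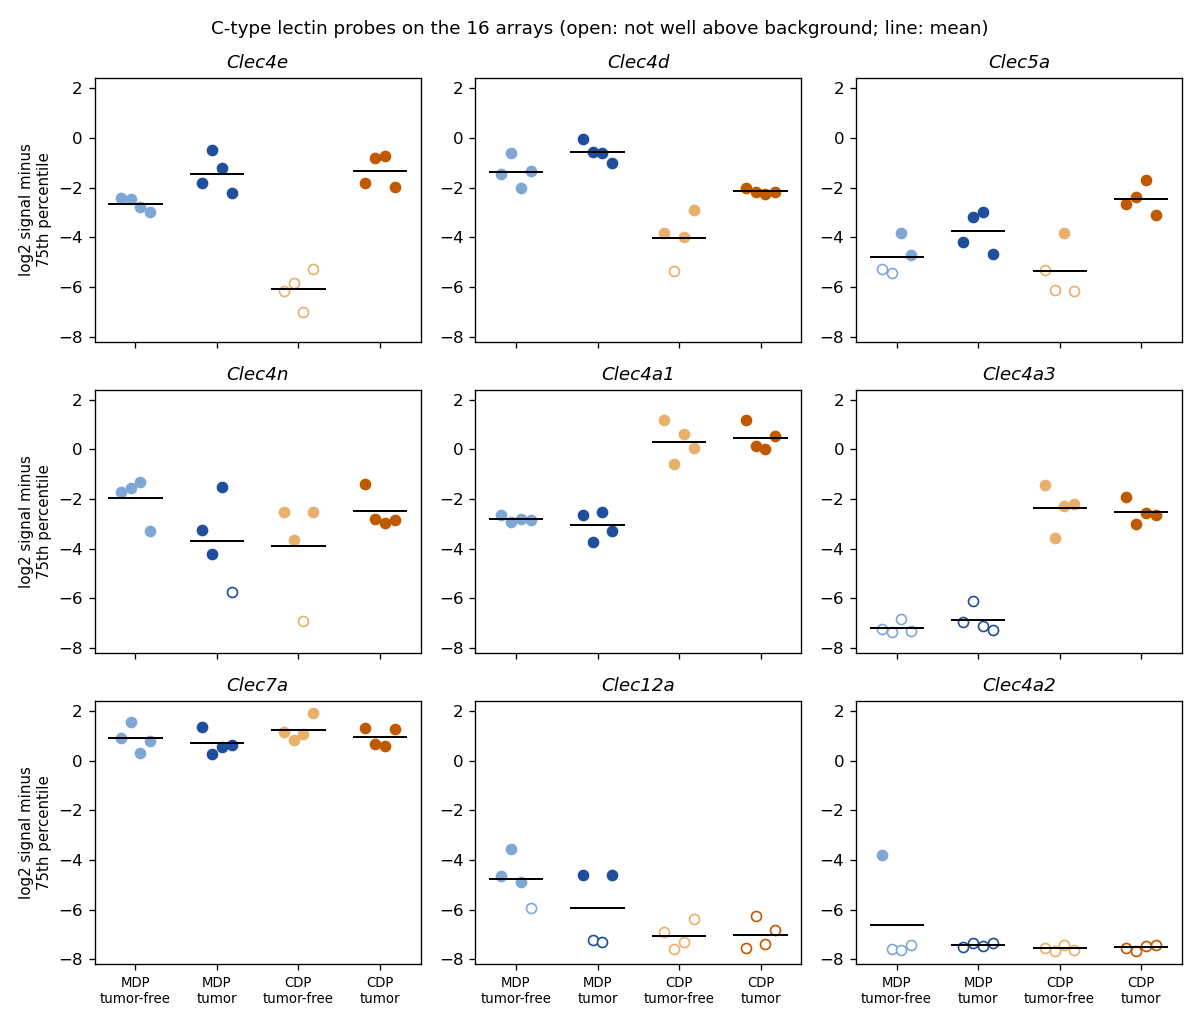
Log2 signal minus the array's 75th percentile (vertical axis) for the 9 lectin probes in the 4 groups, 1 point per array and a line at the group mean, with open points for signals not well above background. Clec4e was open on all 4 tumor-free CDP arrays and filled on the other 12, while Clec4a3 was open on all 8 MDP arrays and filled on all 8 CDP arrays.

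Clec4d, the gene next to Clec4e and a receptor that forms complexes with it, showed the same direction in CDPs. Its level was −3.83, −5.38, −3.98 and −2.89 in tumor-free CDPs, with replicate 3 not well above background. In tumor-bearing CDPs it was −2.0, −2.17, −2.24 and −2.17. The tumor-bearing samples lay within a narrow range above all tumor-free samples. The difference was 1.87 (SE 0.42), 3.67-fold, and 1.74, 1.66 and 3.29 on slides 2, 3 and 4. With normexp the difference for Clec4d was 1.11.

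Clec5a, a receptor that signals through DAP12, was at −5.32, −6.11, −3.81 and −6.16 in tumor-free CDPs, and only replicate 4 was well above background. In tumor-bearing CDPs it was −2.67, −2.39, −1.69 and −3.09, all well above background. The groups did not overlap, with a fitted difference of 2.89 (SE 0.55) and within-slide differences of 2.12, 2.23 and 3.58. For Clec5a the size of the difference rests on dim tumor-free signals, and it was 1.47 with normexp.

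The values of the other lectins overlapped between tumor-bearing and tumor-free CDPs. Clec4n, a receptor for fungal mannans, differed by 1.41 (SE 0.98), but its tumor-free values ran from −6.90 to −2.51 and overlapped the tumor-bearing values of −2.97 to −1.38. Without tumor-free replicate 4 its difference was 0.41. The differences for Clec4a1, Clec4a3 and Clec7a were 0.16, −0.14 and −0.30. Clec12a was not well above background on any CDP array, nor was Clec4a2.

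Of the 8 lectin probes bright enough to be tested, Clec4e, Clec4d and Clec5a passed the call threshold in CDPs, and 1.79% of all tested probes did, but the set was chosen on this contrast and nothing is read from that count. The same 3 probes had groups that did not overlap, as did 11.1% of all tested probes. The median difference of the 8 was 0.78, beside 0.08 over all tested probes. Clec4a2 was above background on 1 array in all and was not tested. The 8 probes passed the filter through the groups in which they were bright, so these counts are not over all 9 genes.

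In MDPs, whose arrays the choice by Clec4e in CDPs did not use, 0 of the 8 tested lectin probes were called by limma, beside 0.062% of all tested probes. One of the 8, Clec4e, had an unadjusted p under 0.05, as had 10.4% of all tested probes. Clec4e was at −2.43, −2.44, −2.80 and −3.00 in tumor-free MDPs and at −1.82, −0.48, −1.23 and −2.23 in tumor-bearing MDPs. All 8 signals were well above background, and every tumor-bearing sample was above every tumor-free sample, as it was in either direction for 5.22% of all tested probes. The difference was 1.23 (SE 0.42), 2.35-fold, with an adjusted p of 0.372 in limma and an exact two-sided permutation p of 0.0286, the smallest that 70 relabelings allow. Within slides 1, 2 and 3 it was 0.92, 1.95 and 0.77, and with slide as a block it was 1.17 with an adjusted p of 0.184 in limma.

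**Figure D2:**
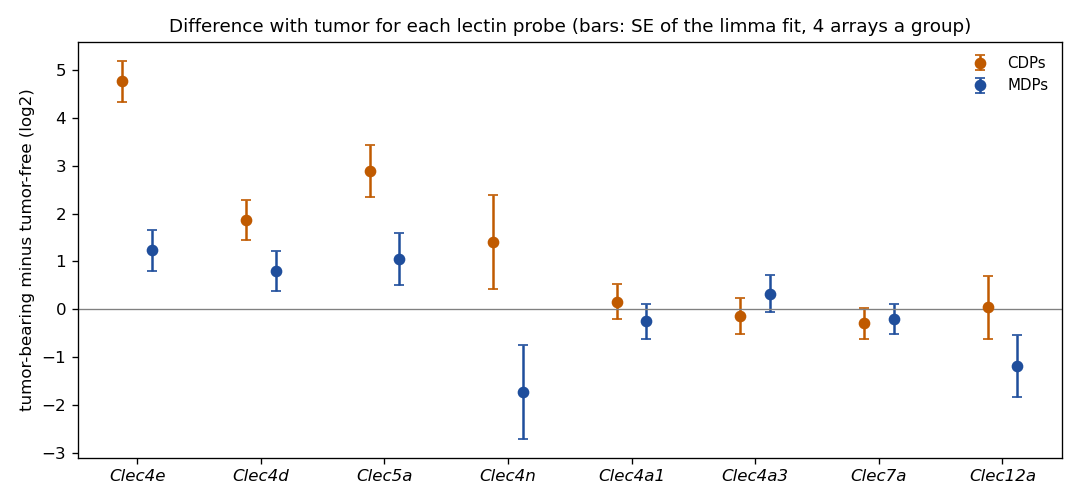
Tumor-bearing minus tumor-free difference (log2, vertical axis) in CDPs and in MDPs for the 8 tested lectin probes, with bars of 1 SE from the limma fit and 4 arrays per group. Clec4e lies at 4.76 in CDPs and 1.23 in MDPs, Clec4n at 1.41 and −1.73, and the points for Clec4a1, Clec4a3 and Clec7a lie between −0.30 and 0.32 in both progenitors.

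The other lectins in MDPs had wide errors. Clec4d had a mean of −1.36 ± 0.58 (SD, n = 4) in tumor-free and −0.55 ± 0.41 in tumor-bearing MDPs, a difference of 0.81 with an adjusted p of 0.518 in limma. Clec5a differed by 1.06 with an adjusted p of 0.518 in limma, and was well above background in 2 of 4 tumor-free and 4 of 4 tumor-bearing samples. Clec4n went the other way from CDPs, with a difference of −1.73 (SE 0.98) and an adjusted p of 0.545 in limma. Its level was −1.70, −1.54, −1.32 and −3.29 in tumor-free MDPs and −3.24, −4.23, −1.52 and −5.76 in tumor-bearing MDPs, so that the groups overlapped. Clec12a, an inhibitory receptor that binds uric acid crystals, differed by −1.18 with an adjusted p of 0.538 in limma, and was above background in 3 tumor-free and 2 tumor-bearing samples. Clec4a1, Clec4a3 and Clec7a differed by −0.25, 0.32 and −0.20, and Clec4a3 was not above background on any MDP array. The median over the 8 probes was 0.06, beside −0.11 over all tested probes. Whether a tumor difference was larger in CDPs than in MDPs was not tested, since that contrast holds the one that chose the genes.

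The step from MDPs to CDPs divided the family in tumor-free mice. Of the 7 tested lectins other than Clec4e, 3 were called, beside 6.07% of all tested probes: Clec4a1 and Clec4a3 were higher in CDPs and Clec4d was lower. Clec4a3 could be tested through its CDP arrays alone and Clec12a through its tumor-free MDP arrays alone, so the count is not read as support. Clec4a1 was at −2.66, −2.92, −2.78 and −2.84 in tumor-free MDPs and at 1.18, −0.59, 0.60 and 0.06 in tumor-free CDPs. It was higher in CDPs by 3.11 (SE 0.37), 8.66-fold, with an adjusted p of 0.000198 in limma, and the groups were far apart on each of the 4 slides, with differences of 2.19 to 4.03. Clec4a3, its neighbor on the chromosome, was not well above background in any tumor-free MDP sample, at −7.35 to −6.84. In tumor-free CDPs it was at −1.45, −3.56, −2.28 and −2.21, all well above background. On this signal Clec4a3 was at least 7.12-fold higher in CDPs, with a fitted difference of 4.80. Its adjusted p of 5.86e-06 in limma adds nothing to its detection in CDPs alone, since that detection let it be tested. With normexp the fitted difference for Clec4a3 was 1.44 with an adjusted p of 0.0647 in limma.

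**Figure D3:**
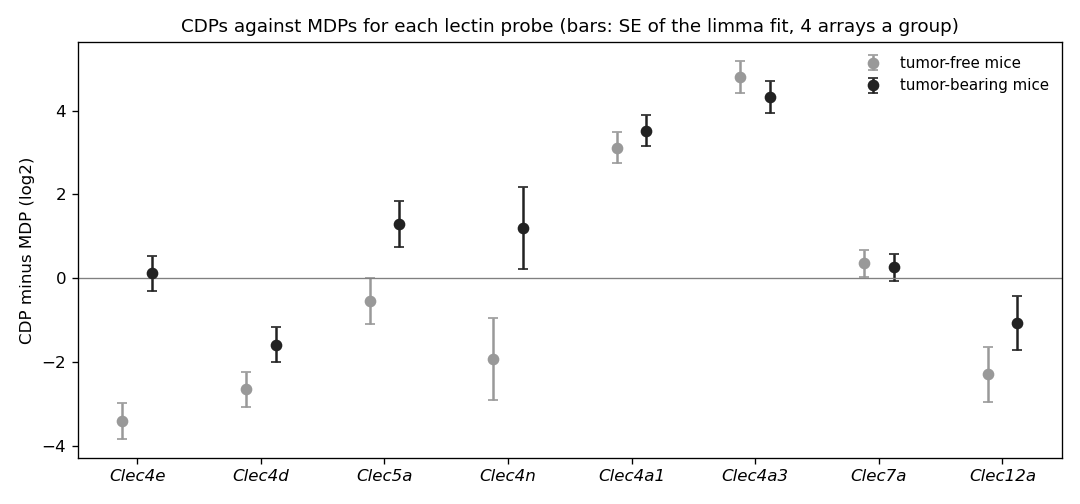
CDP minus MDP difference (log2, vertical axis) for the 8 tested lectin probes, in mice without and with tumor, with bars of 1 SE from the limma fit and 4 arrays per group. Clec4a1 and Clec4a3 lie between 3.11 and 4.80 in both states, whereas Clec4e lies at −3.41 without tumor and 0.11 with tumor.

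Clec4d was at −1.45, −0.62, −2.02 and −1.34 in tumor-free MDPs, above all tumor-free CDP values. It fell by 2.66 on the log2 scale (SE 0.42) from MDPs to CDPs, with an adjusted p of 0.00163 in limma and a difference of −3.35 to −2.27 over the 4 slides. Clec4e had the same pattern as a description, with all tumor-free MDP values above all tumor-free CDP values and a level at least 6.11-fold lower in CDPs, with a fitted difference of −3.41 that was −1.71 with normexp. Clec12a was above background in 3 of 4 tumor-free MDP samples and in 0 of 4 CDP samples, at least 1.47-fold lower in CDPs with an adjusted p of 0.0519 in limma. With slide as a block its adjusted p in limma was 0.0388. Neither p is read as support, since only its tumor-free MDP arrays let it be tested. Clec4n, Clec5a and Clec7a differed by −1.94, −0.54 and 0.35 with adjusted p of 0.349, 0.823 and 0.763 in limma, and Clec4n by −0.94 without tumor-free CDP replicate 4.

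In tumor-bearing mice the same step again held 3 calls among the 7 lectins, beside 7.24% of all tested probes. Clec4a1 was at −2.66, −3.74, −2.51 and −3.29 in MDPs and at 1.18, 0.13, 0.02 and 0.56 in CDPs, and the groups did not overlap. It was higher in CDPs by 3.52 (SE 0.37) with an adjusted p of 5.77e-05 in limma. Clec4a3 was again detected in all 4 CDP samples and in 0 of 4 MDP samples, at least 6.39-fold higher in CDPs with an adjusted p of 1.47e-05 in limma, which again adds nothing to its detection in CDPs alone. With normexp its fitted difference was 1.58 with an adjusted p of 0.0412 in limma. Clec4d was lower in CDPs, with a difference of −1.59 (SE 0.42) and an adjusted p of 0.0332 in limma, and this call was lost in 7 of 16 fits that left out an array. With slide as a block the difference was −0.88 with an adjusted p of 0.126 in limma, and within slides 2 and 3 it was −1.68 and −1.15. Clec4e, as a description, had overlapping levels in CDPs and MDPs of tumor-bearing mice, with a difference of 0.11. Clec5a was higher in CDPs by 1.29 with an adjusted p of 0.154 in limma, and its groups overlapped.

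The order of the groups thus differed between the lectins. For Clec4e, tumor-bearing CDPs (mean −1.32 ± 0.65, SD, n = 4) and tumor-bearing MDPs (−1.44 ± 0.76) came first and overlapped, tumor-free MDPs followed at −2.67 ± 0.28, and tumor-free CDPs were last and not detected. For Clec4d, the means of both MDP groups stood above those of both CDP groups, the lowest tumor-free MDP value (−2.02) reaching the tumor-bearing CDP values, and tumor-free CDPs were last. For Clec5a, tumor-bearing CDPs had the highest mean, −2.46 ± 0.59, but overlapped tumor-bearing MDPs at −3.75 ± 0.81, which in turn overlapped both tumor-free groups. Clec7a, the beta-glucan receptor, was bright on all 16 arrays, with group means of 0.70 to 1.25 that did not differ beyond their spread. Over the 16 arrays Clec4a1 and Clec4a3 had a Pearson r of 0.96, Clec4e and Clec4d of 0.78 and Clec4e and Clec5a of 0.66. These are descriptions over arrays that share slides and groups.

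Adapters and signaling genes downstream of the receptors were examined next, as lists of 30 signaling and 19 output genes, of which 30 and 12 could be tested. The 12 include Clec4b1 and Clec4b2, which are lectins and no outputs, and which are counted again among the other Clec genes. With tumor, 0 of the 42 were called by limma in CDPs and 0 in MDPs, beside 1.79% and 0.062% of all tested probes. At an unadjusted p under 0.05 there were 6 signaling and 0 output genes in CDPs, and 2 and 2 in MDPs, beside 13.7% and 10.4% of all tested probes. The median differences of the signaling genes were −0.01 in CDPs and 0.00 in MDPs, and those of the output genes were 0.27 and −0.60. The adapter Fcer1g differed by −0.10 (SE 0.11) in CDPs and −0.10 in MDPs, and Tyrobp by 0.18 (SE 0.28) and −0.16. Hcst (DAP10), an adapter that recruits PI3 kinase, differed by 0.50 in CDPs with an adjusted p of 0.325 in limma, and by 0.01 in MDPs. Syk, Card9, Bcl10 and Malt1 differed by 0.20, 0.27, 0.12 and 0.06 in CDPs and by 0.06, 0.11, −0.11 and −0.19 in MDPs. All 7 genes were well above background on all 16 arrays.

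**Figure D4:**
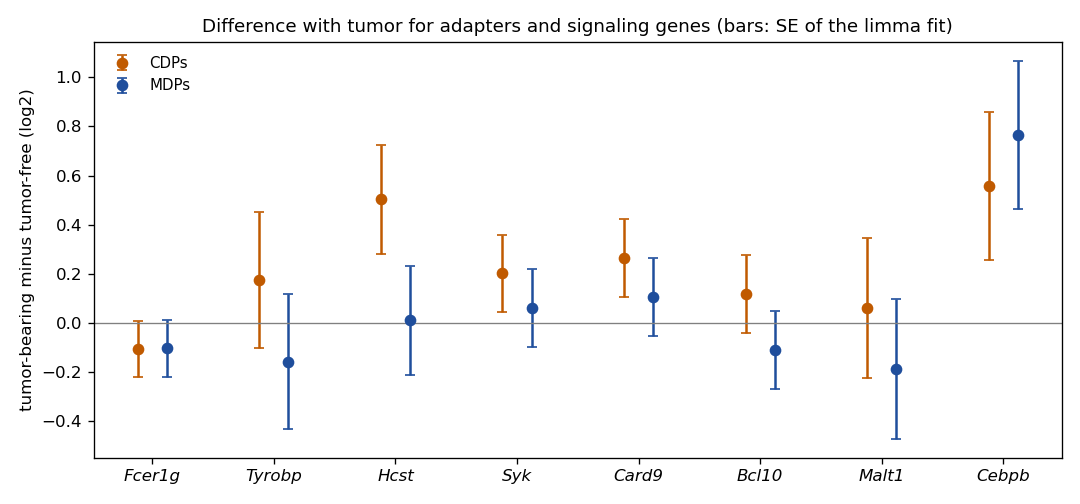
Tumor-bearing minus tumor-free difference (log2, vertical axis) in CDPs and in MDPs for 8 adapter and signaling genes, with bars of 1 SE from the limma fit and 4 arrays per group. The points lie between −0.19 and 0.77, and Cebpb holds the highest in each progenitor, 0.56 in CDPs and 0.77 in MDPs.

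Cebpb, a transcription factor of emergency granulopoiesis and of Clec4e induction, had means of 2.64 in tumor-free and 3.19 in tumor-bearing CDPs, a difference of 0.56 (SE 0.30) with an adjusted p of 0.468 in limma. In MDPs its means were 2.0 and 2.77, a difference of 0.77 with an adjusted p of 0.431 in limma. Nfkb1, which encodes an NF-kB subunit, lay just outside the threshold in CDPs, with a difference of −0.73 (SE 0.18) and an adjusted p of 0.0564 in limma. It was chosen for mention after its values were seen, since it passed under several alternatives.

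From MDPs to CDPs, 6 of the 30 signaling genes were called higher in tumor-free mice and 5 in tumor-bearing mice, beside 2.93% and 3.53% of all tested probes called higher, and 0 were called lower. Among those called in both states were the Src family kinase Fgr and the transcription factor Nfatc2. Fgr was well above background on all 8 CDP arrays and on none of the MDP arrays. It could thus be tested through its CDP arrays alone, and the counts that hold it are not read as support. Nfatc2 was higher in CDPs by 1.53 without tumor and 1.50 with tumor. Both were chosen for mention after their values were seen.

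Of the other Clec genes on the array, 16 could be tested. In CDPs with tumor, 0 were called higher and 2 lower, Clec1a and Clec4g, beside 0.988% of all tested probes called lower. Clec1a, a receptor of endothelial and myeloid cells, had means of −0.73 in tumor-free and −2.98 in tumor-bearing CDPs, and fell by 2.25 on the log2 scale (SE 0.47) with an adjusted p of 0.0285 in limma. Clec4g, best known from liver sinusoidal endothelium, had means of −2.91 and −4.95 and fell by 2.03 on the log2 scale (SE 0.41) with an adjusted p of 0.0257 in limma. Both calls were lost when tumor-free CDP replicate 3, tumor-free CDP replicate 5 or tumor-bearing CDP replicate 3 was left out, with 0 of 16 called. In MDPs 0 of the 16 were called by limma. From MDPs to CDPs, 5 of the 16 were called higher without tumor (Clec10a, Clec1a, Clec2i, Clec4b1 and Clec4g) and 2 with tumor (Clec4b1 and Clec4b2), beside 2.93% and 3.53% of all tested probes, and 0 were called lower. These were chosen for mention after their values were seen. The Clec4a neighbor Clec4b1 was higher in CDPs by 2.09 without tumor and by 2.11 with tumor, with adjusted p of 0.00122 and 0.00111 in limma.

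The genes whose pattern over the 16 arrays was most like that of Clec4e, among 17170 genes, were Selp (Pearson r 0.94), Ppp2cb (0.93), Mt1 (0.93), 2010111I01Rik (0.92) and Tctex1d1 (0.92). Selp, which encodes the adhesion molecule P-selectin, had means of −3.50 and −1.54 in tumor-free and tumor-bearing MDPs and of −5.50 and −2.50 in tumor-free and tumor-bearing CDPs. Mt1, a metal-binding metallothionein, had means of 2.21, 3.19, 0.01 and 2.26 in the same order. The likeness depended on the measure: after the mean of each slide was subtracted, 2 of these 5 genes remained among the 5 most like, Mt1 and Ppp2cb.

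Most genes of the neutrophil and monocyte lists, cell types that also express these lectins, were higher in tumor-bearing CDPs. Of 21 tested neutrophil genes 17 were higher, with a median difference of 0.82, and of 22 monocyte and macrophage genes 19, with 0.32. Over all tested probes 57.7% were higher, with a median of 0.08. In MDPs 12 of the 21 and 8 of the 22 were higher, with medians of 0.08 and −0.10. The summed signal of 23 neutrophil genes, in multiples of the array's 75th percentile, was 97.2 to 163 in tumor-free and 178 to 261 in tumor-bearing CDPs, and 133 to 220 and 142 to 255 in MDPs. Of 21 tested neutrophil genes, 4 were called higher in tumor-bearing CDPs, namely Elane, Il1r2, Lcn2 and Mmp8, and 2 in tumor-bearing MDPs, Chil3 and Lcn2, beside 1.79% and 0.062% of all tested probes called in either direction. The sum of 6 neutrophil-defining genes was 1.85 to 4.14 in tumor-free and 5.05 to 8.66 in tumor-bearing CDPs, and none of the 6 was absent from all arrays of a group. Of these 6, 2 were higher in tumor-bearing CDPs and the median difference was −0.26. Mmp8 was called, with a difference of 1.87, while Camp, Ltf, Ngp and Retnlg had differences of −0.65, −0.45, −0.25 and −0.27. The 22 monocyte and macrophage genes summed to 173 to 292 in tumor-free and 253 to 293 in tumor-bearing CDPs, so that these sums overlapped. Of the 22, 2 were called higher, Fcgr3 and Vcan, beside 1.79% of all tested probes called in either direction. The 6 monocyte-defining genes summed to 5.17 to 6.33 and 6.12 to 9.30, which also overlapped. All 6 were higher in tumor-bearing CDPs, with a median difference of 0.32 and 0 called. In MDPs the neutrophil-defining sum was 1.35 to 1.98 in tumor-free and 2.02 to 3.92 in tumor-bearing samples. Of 6 tested genes of the sorting gate, 1 was higher in tumor-bearing CDPs, the median difference was −0.85, and 5 had an unadjusted p under 0.05 in limma. The sum of the 7 gate genes on the array was 37.6 to 42.7 in tumor-free and 28.2 to 32.5 in tumor-bearing CDPs, without overlap. Kit was the gate gene called, lower by a difference of −1.34 with an adjusted p of 0.00441 in limma. Of 7 tested erythroid genes, 0 were higher in tumor-bearing CDPs and 0 were called, with a median difference of −1.44 and 5 at an unadjusted p under 0.05 in limma, and the 8 erythroid genes on the array summed to 3.15 to 12.8 in tumor-free and 1.91 to 4.62 in tumor-bearing CDPs. Conventional DC genes had a median difference of −0.52 in CDPs and −0.54 in MDPs, with Cd209a called lower in each, and plasmacytoid DC genes had −0.40 and −0.15, with Bst2 and Spib called lower in CDPs. Mast cell and basophil genes summed to 1.34 to 3.68 in tumor-free and 3.36 to 4.55 in tumor-bearing CDPs, and B cell genes to 6.60 to 8.54 and 6.60 to 8.19, with 0 called in either list. Genes of T and NK cells summed to 14.2 to 18.4 over the 8 MDP arrays. In CDPs they summed to 1.92 to 3.198 without tumor and 3.204 to 4.06 with tumor. Of 7 tested, 6 were higher with tumor in CDPs, and 0 were called with tumor in either progenitor. From MDPs to CDPs, 4 of 7 were higher without tumor and 6 of 7 with tumor, with 1 called lower in each state. The lower sums in CDPs thus do not stand for most genes of the list. The part of these markers in the lectin differences was not tested.

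**Figure D5:**
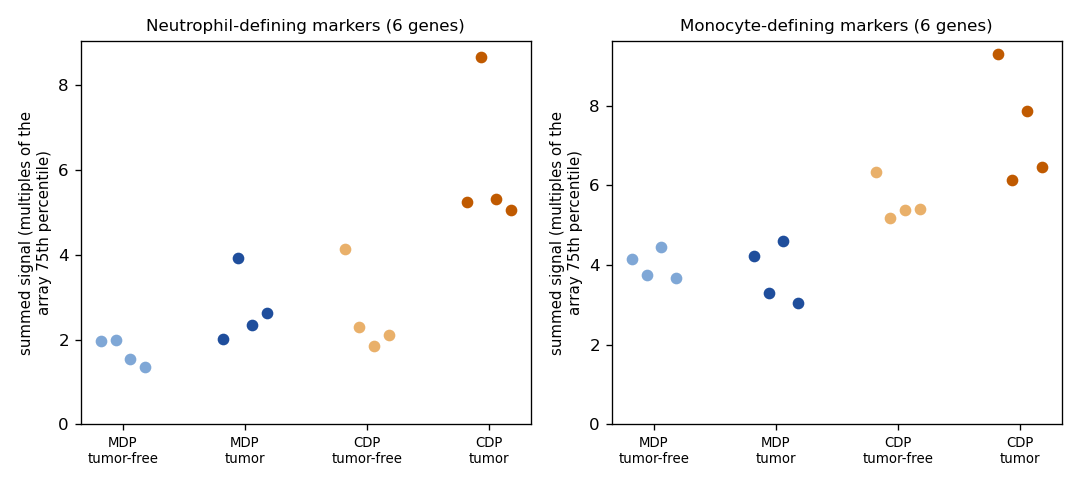
Summed signal of 6 neutrophil-defining genes (left) and 6 monocyte-defining genes (right), in multiples of the array's 75th percentile (vertical axis, from 0), with 1 point per array in the 4 groups. The neutrophil sum lies at 5.05 or above in tumor-bearing CDPs and at 4.14 or below in all other groups. Of its 6 genes, 2 were higher in tumor-bearing CDPs and the median difference was −0.26, so the sum does not stand for most of them.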

How the data were processed

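RNA of MDPs and CDPs was measured on 16 Agilent 1-color mouse arrays. The authors deposited the scanner output of every array as read by Agilent Feature Extraction (version 11.5.1.1). Its processed signal is an intensity that the authors' software background-subtracted and detrended array by array, and it is not scaled across arrays. Raw mean and background intensities and detection flags (score of 0 or 1) come from the same deposited output. A further deposited table of log2 values served as an alternative only. The submitters' processing notes name limma.

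Groups and replicate numbers (2 to 5) follow the sample titles. Control spots and 182 to 289 outlier spots per array were left out, the array's 75th percentile of log2 processed signal was subtracted, and spots of a probe were averaged. Probes detected above background in 3 or more of the 4 arrays of any group were tested. The 4 group means were fitted over all 16 arrays with limma 3.58.1 in R 4.3.3 (with version 1.17.8 of data.table), with the fold and FDR thresholds named in the study's methods. The main fit had no slide term, so its p-values measure the spread between these pooled samples together with that between slides. The number of arrays limits the precision. A gene outside the lectins with several probes is given by its brightest tested probe. A bound ("at least") sets the brighter mean against the lowest detectable signal. The members and gene lists were chosen with earlier results of these data known. Genes named are the members, the adapters and core signaling genes, called genes of the lists and of the Clec family, and the 5 genes most like Clec4e; others are marked as chosen after their values were seen. Further lists (cDC, pDC, T and NK, B, erythroid, mast cell and basophil markers) were summed and are given beside the CDP result. The fit was also run on simulated data with independent noise and no slide effect, so that run does not bear on differences between slides. Alternatives were other background corrections, normalizations, filters, thresholds, samples in the fit, slide and replicate number as blocks, the methods' t-test, the value table, and leaving out each array.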

Additional observations from a re-analysis of the deposited data

Results flagged for a closer look

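Among the 36 sets of 4 arrays (9 lectins in 4 groups), 2 held a sample whose gap to its nearest neighbor exceeded Dixon's critical value as a share of the group's range, and chance gives about 1 in 20. Clec4n in tumor-bearing CDP replicate 2 was at -1.38, while the other 3 samples lay between -2.97 and -2.79. Clec4a2 in tumor-free MDP replicate 2 was at -3.80 and well above background, while the other 3 samples lay between -7.64 and -7.41 and were not.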

How the results depend on the processing

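The Clec4e difference in CDPs was 2.52 with normexp and 4.45 to 5.02 with 1 array left out. In MDPs it was 0.91 to 1.49 with 1 array left out, and the methods' t-test gave 1.23 with an unadjusted p of 0.0226, so that 1 lectin passed there at its unadjusted threshold. With 1 array left out, 0 to 0 lectins were called in MDPs, 3 to 4 in the tumor-free step from MDPs to CDPs and 2 to 3 in the tumor-bearing step. With only probes detected on all 16 arrays, 1 of 2 lectins (Clec4a1) was called in each step, since fewer genes were tested. Clec4d in the tumor-bearing step lost its call with quantile normalization (adjusted p 0.0766 in limma), the value table (0.0843), the slide block (0.126) and the replicate block (0.0666), and in 7 of 16 fits that left out an array, namely without tumor-bearing MDP replicate 2, 3 or 4 or any tumor-bearing CDP replicate, with an adjusted p of 0.0573 to 0.0996. Clec4d in the tumor-free step lost its call under the methods' t-test after Benjamini-Hochberg adjustment (0.0613). Clec12a in the tumor-free step passed with normexp (adjusted p 0.0257), the slide block (0.0388) and only the groups compared in the fit (0.0372), and without tumor-free MDP replicate 5 or any tumor-bearing MDP replicate. Uncalled directions turned for Clec4a1 in MDPs (0.048 with quantile normalization and 0.046 in the value table), Clec4a3 in MDPs (-0.28 with normexp) and Clec7a in MDPs (-0.42 to 0.028 with 1 array left out, the highest without tumor-free replicate 3). Of the signaling and output genes in CDPs, 1 (Nfkb1) was called with quantile normalization, median scaling, probes detected on all arrays, the value table, the slide block or an adjusted p under 0.1, 3 (Nfatc1, Nfatc2 and Nfkb1) by the methods' t-test before adjustment, and 0 to 1 with 1 array left out (Nfkb1 without tumor-free MDP replicate 3 or tumor-bearing CDP replicate 5, Fgr without tumor-free CDP replicate 2). In MDPs it was 0 to 0. Other Clec genes called in CDPs were 1 with probes detected on all arrays, 1 with only the groups compared, 4 (with Clec9a and Clec10a added) and 0 by the methods' t-test before and after adjustment, and 0 to 2 with 1 array left out (1, Clec4g, without tumor-free CDP replicate 2 or tumor-bearing CDP replicate 2 or 4). In MDPs the same t-test before adjustment gave 1 (Clec9a), and leaving out an array gave 0 to 0. Quantile normalization moved the median of all probes in MDPs from -0.11 to 0.00. Of the genes most like Clec4e, 2 of 5 were shared after slide means were subtracted and 2 of 5 with Spearman rho. The cause was not tested for any of these.

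Same-numbered samples correlated with r from -0.63 to 0.48 over 16 pairs, 7 of them over 0.1 and 5 the best match of their sample. Group means but not slide means were removed first, and 4 of the 16 pairs shared a slide. The correlations therefore cannot decide whether the numbers pair samples, and the numbers were not taken to pair them. With the replicate block, Clec4e differed by 4.76 in CDPs and by 1.23 in MDPs (adjusted p 0.414 in limma), 0 lectins were called in MDPs, 3 in the tumor-free step and 2 in the tumor-bearing step, and 2 other Clec genes were called in CDPs.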
